A study of Mus musculus with 4 samples.

Results

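The acute phase proteins are plasma proteins that the liver makes in larger amounts during inflammation. IL-6, acting through gp130 and STAT3, and IL-1, acting through NF-κB, drive this response in hepatocytes together with the C/EBP factors. Its best known members in the mouse are the serum amyloid A proteins SAA1 and SAA2, which travel on high-density lipoprotein, whereas SAA4 is made constitutively. Orosomucoids, haptoglobin, hemopexin and lipocalin 2 belong to the same response, and C-reactive protein is only a minor acute phase protein in this species.

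The 10 genes *Saa1*, *Saa2*, *Saa3*, *Saa4*, *Orm1*, *Orm2*, *Hp*, *Hpx*, *Lcn2* and *Crp* were followed here in adult liver. They were taken as every non-control probe whose accession belongs to 1 of these genes, which gave 10 probes, 1 per gene, of 55681 probes in all. The liver RNA came from whole-body *Rap1* -/- mice and wild-type mice of the C57BL6/129SV background. The constitutive deletion was made with a *cre* transgene under the *EIIa* promoter, which the study bred out of the colony. The labels give an age of 30 weeks for both genotypes and no sex. The study describes the animals as females and gives a somewhat higher age. No treatment is listed in the labels, and the standard chow is that of the study's methods. Each array carried 1 liver of each genotype, labelled with Cy5 and Cy3, and the series lists 3 biological replicates per genotype. *Rap1*-deficient RNA was in Cy5 on replicates 1, 2 and 3 and in Cy3 on the 1 array with exchanged dyes (the swap array), which carries the number 1 in the labels and was averaged with replicate 1 (n = 3 pairs).

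All values are log2 ratios of *Rap1*-deficient over wild-type liver after background correction and loess normalization, unless a level is named. Of the 55681 probes, 27513 (49.4%) exceeded background clearly in 1 genotype or both, and limma was applied to these with a threshold of 0.15 on the Benjamini-Hochberg FDR. All 10 probes were well above background on all 4 arrays in both genotypes. Per channel, 50.1% to 56.4% of spots stood well above background and none was saturated. Over the tested probes, whose values are not independent, replicates 1, 2 and 3 had pairwise r = 0.64 to 0.85. These replicates all carried *Rap1*-deficient RNA in Cy5, so genotype and dye cannot be told apart among them. Their agreement therefore does not measure genotype alone. The swap array stood apart, with r = -0.24 to -0.29 against replicates 1, 2 and 3 after its sign was turned. Its value is therefore given beside the results. *Terf2ip*, which encodes RAP1, was detected by probe A_52_P381806 in wild-type RNA on 4 of 4 arrays and in *Rap1*-deficient RNA on 0 of 4, at least 3.33-fold lower (adjusted p = 0.00859 from limma). This bound sets the wild-type level against the lowest level well above background. A second *Terf2ip* probe, A_55_P2094079, was higher by 0.96 (adjusted p = 0.0329), and its place relative to the deleted part is not stated in the sources used.

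The inducible serum amyloid A genes, *Lcn2*, *Hp* and *Hpx* were highest in the *Rap1*-deficient liver of replicate 3, where their ratios lay between 1.53 and 3.13. Over the 3 pairs, *Saa1*, *Saa2*, *Lcn2* and *Hp* passed the test as higher and *Crp* as lower. These were 5 of 10 genes, beside 34.5% of all tested probes, of which 20.8% were higher and 13.7% lower. The median change of the 10 genes was 0.64, beside 0.03 for all tested probes. Their median was -0.22 on replicate 1, 0.33 on replicate 2, 1.67 on replicate 3 and 0.06 on the swap array, where all tested probes had medians from -0.01 to 0.03. On replicate 3, 6 of the 10 genes had a ratio over 1, beside 4.96% of all tested probes. On replicate 2 this held for 1 of 10, beside 3.95%, and on replicate 1 and the swap array for 0 of 10.

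**Figure D1:**
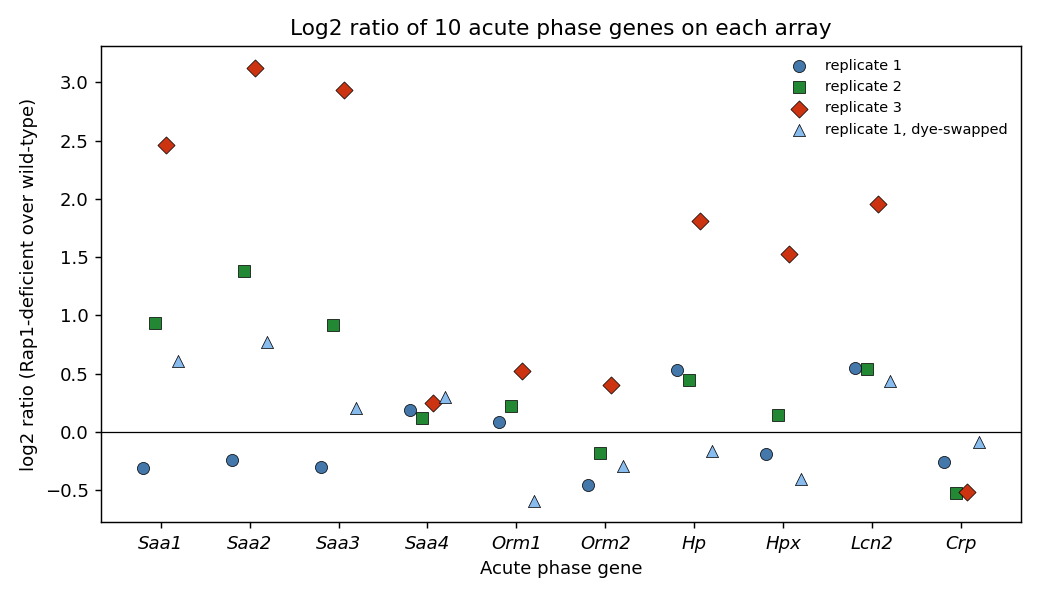
Log2 ratio (*Rap1*-deficient over wild-type, vertical axis) of the 10 acute phase genes (horizontal axis), 1 point per array. On replicate 3, *Saa2* sits at 3.13, *Saa3* at 2.93 and *Saa1* at 2.46, whereas *Saa4* lies between 0.12 and 0.30 on every array.

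The promoters of the serum amyloid A genes and of *Lcn2* are shown because *Saa1*, *Saa2*, *Saa3* and *Lcn2* had the highest ratios on replicate 3 and *Saa4*, a neighbour in the same gene cluster, did not. They are RefSeq sequences of GRCm38.p6, each from 250 bases before to 50 bases after the gene's start, 5′ to 3′ on the strand of the gene. The table held such a sequence for 8 of the 10 genes. Capitals mark the C/EBP motif TTNNGNAA, found on either strand. The windows are chr7:46742931-46743230 (minus strand) for *Saa1*, chr7:46751583-46751882 (plus strand) for *Saa2*, chr7:46715627-46715926 (minus strand) for *Saa3*, chr7:46732554-46732853 (minus strand) for *Saa4* and chr2:32387690-32387989 (minus strand) for *Lcn2*.
*Saa1*: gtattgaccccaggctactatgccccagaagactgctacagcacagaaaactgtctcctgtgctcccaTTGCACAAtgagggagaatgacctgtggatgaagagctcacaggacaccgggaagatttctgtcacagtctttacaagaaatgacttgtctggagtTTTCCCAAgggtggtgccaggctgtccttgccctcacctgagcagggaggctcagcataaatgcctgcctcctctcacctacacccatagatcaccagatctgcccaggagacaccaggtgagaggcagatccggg
*Saa2*: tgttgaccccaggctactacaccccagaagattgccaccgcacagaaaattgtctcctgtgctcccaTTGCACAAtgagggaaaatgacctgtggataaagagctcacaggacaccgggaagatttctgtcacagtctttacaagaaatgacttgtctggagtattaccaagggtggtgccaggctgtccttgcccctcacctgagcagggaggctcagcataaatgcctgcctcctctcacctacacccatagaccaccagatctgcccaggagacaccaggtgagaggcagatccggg
*Saa3*: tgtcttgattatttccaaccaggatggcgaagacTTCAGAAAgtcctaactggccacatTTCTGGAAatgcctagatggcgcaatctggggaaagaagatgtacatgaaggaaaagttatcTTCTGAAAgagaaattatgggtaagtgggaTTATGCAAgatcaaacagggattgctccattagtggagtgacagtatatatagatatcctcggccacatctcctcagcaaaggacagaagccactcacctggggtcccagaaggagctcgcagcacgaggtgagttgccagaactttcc
*Saa4*: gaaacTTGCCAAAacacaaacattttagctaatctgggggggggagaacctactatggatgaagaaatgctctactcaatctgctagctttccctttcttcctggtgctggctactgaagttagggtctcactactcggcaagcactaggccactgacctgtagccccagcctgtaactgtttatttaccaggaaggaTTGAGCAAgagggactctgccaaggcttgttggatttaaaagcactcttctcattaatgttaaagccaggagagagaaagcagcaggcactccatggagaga
*Lcn2*: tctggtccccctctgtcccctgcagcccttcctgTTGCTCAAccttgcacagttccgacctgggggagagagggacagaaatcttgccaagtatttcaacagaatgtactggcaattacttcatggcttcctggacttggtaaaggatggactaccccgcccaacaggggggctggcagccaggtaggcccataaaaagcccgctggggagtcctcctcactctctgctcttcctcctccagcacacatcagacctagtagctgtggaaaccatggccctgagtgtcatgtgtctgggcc

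The *Saa1* and *Saa2* windows were identical at 287 of 301 aligned positions (95.3%), and both held TTGCACAA, from base -182 to -175 before the start in *Saa1* and from -183 to -176 in *Saa2*. *Saa3* was identical to *Saa1* at 50.9% of aligned positions and held 4 copies of the motif, and *Saa4*, at 46.8%, held 2. All 8 available windows held at least 1 copy, beside 40.7% of 32851 promoters in the table. The STAT3 motif TTCNNNGAA, present in 8.30% of all promoters, and the NF-κB consensus, present in 8.46%, had no match in these 8 windows on either strand, so no motif overlapped another. A match describes the letters of a window and is not a binding site. The copies of the C/EBP motif did not separate *Saa4*, with its flat ratios, from the other genes.

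*Saa1*, *Saa2* and *Saa3* encode the inducible serum amyloid A proteins, *Saa1* and *Saa2* chiefly from hepatocytes and *Saa3* also from macrophages and fat. *Saa2* (probe A_55_P1994807, accession NM_011314) had ratios of -0.25, 1.38 and 3.13 on replicates 1, 2 and 3, with 0.77 from the swap array. Its log2 level in *Rap1*-deficient liver was 11.58, 13.15 and 14.81 on replicates 1, 2 and 3, with 12.29 from the swap array, against 11.83, 11.77, 11.68 and 11.52 in wild-type liver. The *Rap1*-deficient levels thus spanned 3.23 log2 units and the wild-type levels 0.31, and the genotypes overlapped because replicate 1 lay among the wild-type values. *Saa2* rose by 1.59 (standard error 0.51, 95% confidence interval 0.32 to 2.87, adjusted p = 0.0968 from limma, n = 3 pairs), a 3.01-fold difference. On replicate 3 alone its ratio was 8.74-fold and ranked 25 of 27513 probes from the highest.

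*Saa1* (A_52_P318673, NM_009117) had ratios of -0.31, 0.94 and 2.46 on replicates 1, 2 and 3, with 0.61 from the swap array. Its *Rap1*-deficient levels were 11.65, 12.90, 14.56 and 12.44 in that order, against wild-type levels of 11.96, 11.96, 12.10 and 11.83. Replicate 3 was again the highest, replicate 1 lay below every wild-type value, and the genotypes overlapped. *Saa1* rose by 1.18 (standard error 0.42, adjusted p = 0.117 from limma). The RefSeq table lists *Saa1* and *Saa2* as each other's synonyms, and the deposited scans hold no probe sequences, so how far each probe also reads the other transcript was not tested.

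*Saa3* (A_55_P1953169, NM_011315) followed the same order, with ratios of -0.30, 0.92 and 2.93 and 0.21 on the swap array. Its *Rap1*-deficient levels of 7.71, 8.90, 11.06 and 8.38 spanned 3.35 log2 units, against 0.19 for wild-type levels between 7.99 and 8.18. The mean was 1.27 (standard error 0.54) and did not pass (adjusted p = 0.163 from limma, 95% confidence interval -0.07 to 2.61). Among the 10 genes, *Saa1* and *Saa3* were the closest pair over the 4 arrays, with a root mean square distance of 0.31.

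*Saa4* (A_52_P404329, NM_011316), the constitutive member of the family, stayed within a narrow range. Its ratios were 0.18, 0.12, 0.25 and 0.30 on replicates 1, 2 and 3 and the swap array. Its levels lay between 12.60 and 12.77 in *Rap1*-deficient liver and between 12.44 and 12.48 in wild-type liver, so the genotypes did not overlap. The mean of 0.20 did not pass (standard error 0.08, adjusted p = 0.155 from limma), with a 95% confidence interval from -0.01 to 0.41. *Saa4* and *Lcn2* were 2 of 10 genes above 0 on all 4 arrays, beside 10.6% of all tested probes. *Crp* was 1 of 10 below 0 on all 4 arrays, beside 10.9%.

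**Figure D2:**
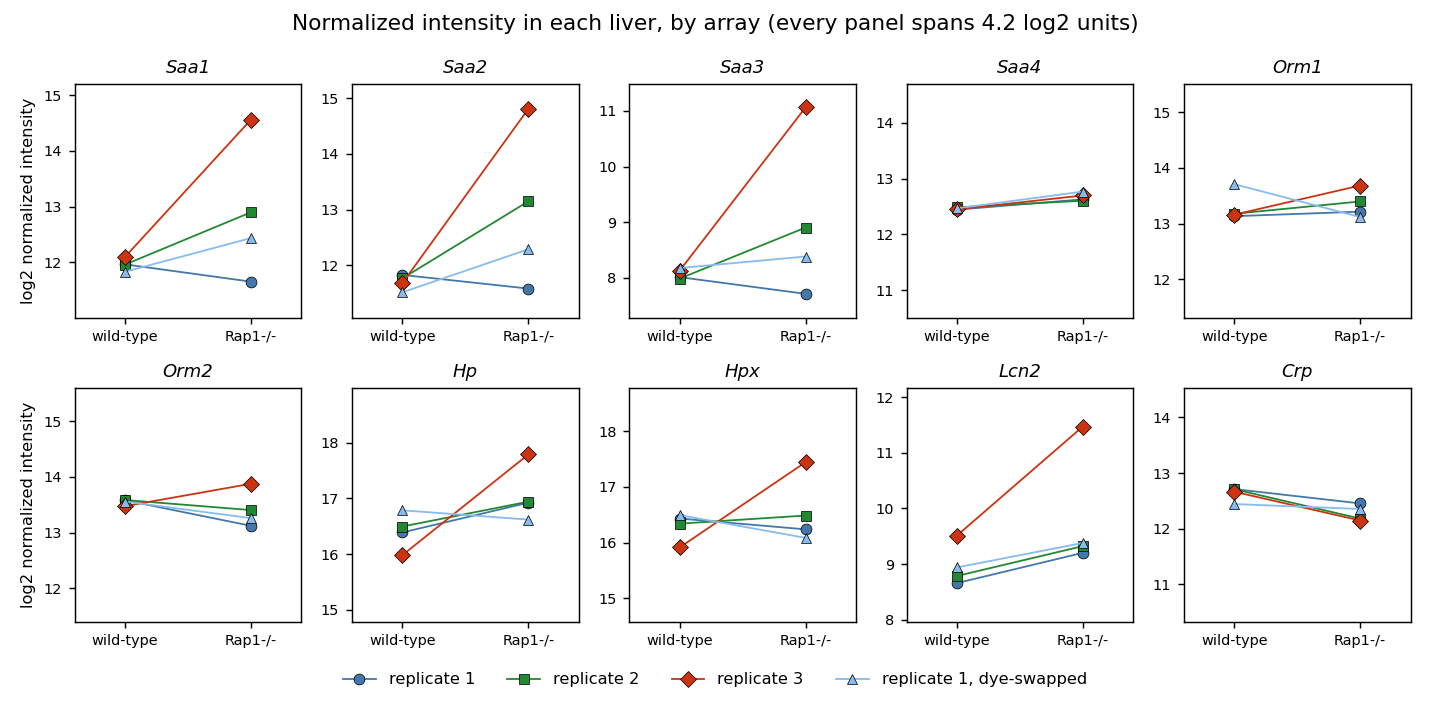
Log2 normalized intensity (vertical axis) of the 10 genes in wild-type and *Rap1* -/- liver (horizontal axis), with a line for each of the 4 arrays and the same vertical span in every panel. The wild-type values of *Saa1*, *Saa2*, *Saa3* and *Saa4* lie close together, and the *Rap1* -/- value of replicate 3 stands at 14.81 for *Saa2* and at 11.06 for *Saa3*.

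*Lcn2* encodes lipocalin 2, which binds bacterial siderophores and is made by hepatocytes in the acute phase and stored in neutrophil granules. Its probe (A_55_P2070869, NM_008491) had ratios of 0.54, 0.54, 1.96 and 0.44 on replicates 1, 2 and 3 and the swap array. The *Rap1*-deficient levels were 9.20, 9.32, 11.47 and 9.38, and the wild-type levels 8.66, 8.79, 9.51 and 8.94. The wild-type liver of replicate 3 was also the highest of its genotype, above the *Rap1*-deficient livers of the other pairs, and within each array the *Rap1*-deficient liver was higher. *Lcn2* rose by 0.995 (standard error 0.30, adjusted p = 0.0878 from limma), a 1.99-fold difference. At the FDR of 0.15 it passed under 9 of 12 alternatives, against 8 for *Saa2*, 7 for *Crp*, 5 for *Saa1* and 4 for *Hp*, whereas at an FDR of 0.05 none of the 10 genes passed (5 had an unadjusted p under 0.05 in limma).

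*Hp* and *Hpx* encode haptoglobin and hemopexin, the plasma scavengers of free hemoglobin and heme. *Hp* (A_55_P2048607, NM_017370) had ratios of 0.53, 0.45 and 1.81 on replicates 1, 2 and 3, with -0.17 from the swap array. Its *Rap1*-deficient levels were 16.92, 16.94, 17.79 and 16.62 and its wild-type levels 16.39, 16.49, 15.98 and 16.79. On replicate 3 the *Rap1*-deficient liver was the highest and the wild-type liver the lowest, and on the swap array the order of the genotypes was turned. *Hp* passed as higher by 0.81 (standard error 0.31, adjusted p = 0.139 from limma, 95% confidence interval 0.03 to 1.60).

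*Hpx* (A_51_P325836, NM_017371) had ratios of -0.19, 0.15, 1.53 and -0.41 in the same order. Its *Rap1*-deficient levels of 16.24, 16.49, 17.44 and 16.09 overlapped with wild-type levels of 16.43, 16.34, 15.91 and 16.49. Only replicate 3 was clearly above 0, and the mean of 0.46 did not pass (standard error 0.34, adjusted p = 0.385 from limma). Without replicate 3 the mean of *Hpx* was -0.08.

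*Orm1* and *Orm2* encode orosomucoids, lipid-binding glycoproteins of plasma. *Orm1* (A_51_P336325, NM_008768) had ratios of 0.08, 0.22 and 0.52 on replicates 1, 2 and 3, with -0.59 from the swap array. *Orm2* (A_51_P141546, NM_011016) had -0.46, -0.18, 0.40 and -0.30. Both were highest on replicate 3, but their means of 0.16 (standard error 0.16, adjusted p = 0.501 from limma) and -0.05 (standard error 0.16, adjusted p = 0.84) did not pass. The 95% confidence intervals ran from -0.23 to 0.56 for *Orm1* and from -0.46 to 0.35 for *Orm2*, so changes over 0.56 lay outside both. *Orm3*, the third orosomucoid gene of the mouse, had ratios of -0.43, 0.16, 1.38 and -0.11 and a mean of 0.42 (adjusted p = 0.374 from limma).

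*Crp* (A_55_P2127765, NM_007768) went the other way from the serum amyloid A genes. C-reactive protein is a pentraxin that binds phosphocholine. Its ratios were -0.26, -0.53 and -0.52 on replicates 1, 2 and 3, with -0.09 from the swap array. The *Rap1*-deficient levels were 12.46, 12.18, 12.15 and 12.36, and the wild-type levels 12.71, 12.71, 12.67 and 12.44, so the genotypes overlapped only through the swap array. *Crp* fell by 0.41 (log2, with a standard error of 0.11 and adjusted p = 0.0673 from limma). The other pentraxin of the acute phase, *Apcs*, which encodes serum amyloid P, fell by 0.28 (standard error 0.10, adjusted p = 0.129) and had -0.51 on the swap array.

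The tests on the 10 genes depended on which arrays entered the fit. With a dye term over the 4 arrays, 0 of 10 genes passed (2 had an unadjusted p under 0.05), beside 6.7% of all tested probes. That fit took the 4 arrays as independent, although the swap array carries the number of replicate 1. It gave the swap array the same weight as the mean of replicates 1, 2 and 3. Its intervals thus rest on other assumptions than those of the 3 pairs. The estimates were then 1.10 for *Saa2*, 0.82 for *Saa1*, 0.73 for *Lcn2* and 0.38 for *Hp*, with adjusted p from 0.282 to 0.525 from limma, and -0.26 for *Crp* (adjusted p = 0.228). *Saa4* had 0.24 there (95% confidence interval 0.05 to 0.43, adjusted p = 0.2). With the swap array entered separately, 0 of 10 passed in limma (4 had an unadjusted p under 0.05), beside 0.302%, and without it 6 of 10, beside 52.7%. Without replicate 3, *Lcn2* alone passed of the 10 (0.51, adjusted p = 0.118 from limma), beside 9.94% of all tested probes, and *Saa2* had 0.82 (adjusted p = 0.17). Leaving out replicate 1 also left out the swap array averaged with it. That fit thus held replicates 2 and 3 alone, both with *Rap1*-deficient RNA in Cy5, where genotype and dye cannot be told apart. In it 8 of 10 passed, beside 45.8%, and *Saa2* had 2.26. Without replicate 2, 0 of 10 passed in limma (1 had an unadjusted p under 0.05), beside 0.0254%.

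**Figure D3:**
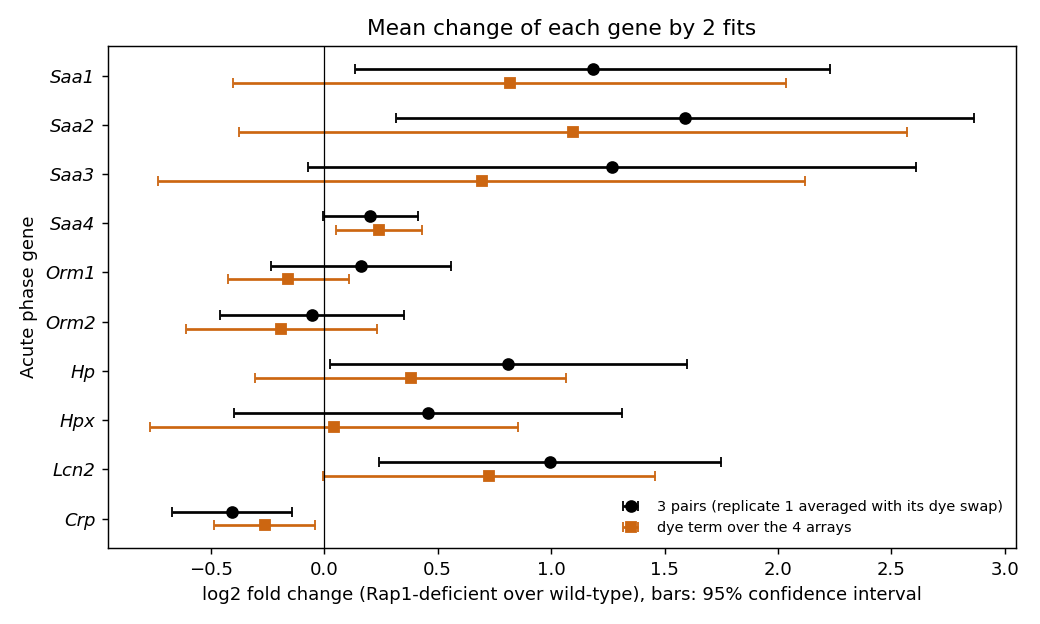
Log2 fold change of each gene (horizontal axis) with its 95% confidence interval, from the 3 pairs (black circles) and from a dye term over the 4 arrays (orange squares). The fit with the dye term takes the 4 arrays as independent. *Saa2* sits at 1.59 and 1.10, the interval of *Crp* lies below 0 in both fits, and those of *Saa1*, *Saa2*, *Hp* and *Lcn2* reach below 0 with the dye term.

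Of 33 other genes listed here as rising in the acute phase, 31 were tested, and their ratios on replicate 3 were mixed. Over the 3 pairs, 7 were higher (22.6%, beside 20.8% of all tested probes), 7 lower (22.6%, beside 13.7%) and 17 did not pass, with a median of 0.15 beside 0.03. Their median was -0.06, 0.12 and 0.50 on replicates 1, 2 and 3, with -0.28 from the swap array. With a dye term 2 were higher and 3 lower, where 6.7% of all tested probes passed. *Serpina3n*, a serine protease inhibitor, rose by 1.01 (standard error 0.14, adjusted p = 0.0402 from limma), *Lrg1*, a secreted leucine-rich glycoprotein, by 0.65 (adjusted p = 0.0402), *Lbp*, which binds bacterial lipopolysaccharide, by 0.76 (adjusted p = 0.0724) and *Itih4*, an inter-alpha-trypsin inhibitor chain, by 0.35 (adjusted p = 0.125). Unlike *Saa2*, *Serpina3n* had its highest ratio on replicate 1 (1.56, beside 1.13 and 1.24), and on the swap array it had -0.26. *Lrg1* was above 0 on all 4 arrays, with 0.04 on the swap array, and did not pass with the dye term (0.45, adjusted p = 0.21 from limma). The swap array gave -0.39 for *Lbp* and -0.43 for *Itih4*, and neither passed with the dye term (0.29, adjusted p = 0.351 from limma, and 0.03, adjusted p = 0.843). *Steap4*, *Agt* and *Ambp*, named after their values were seen, also passed as higher, by 1.17, 0.54 and 0.62 (adjusted p = 0.0432, 0.0471 and 0.121 from limma). They had -0.21, -0.09 and -0.86 on the swap array. Of these, *Steap4* alone passed with the dye term (0.60, adjusted p = 0.107 from limma).

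The fibrinogen chains did not rise with the serum amyloid A genes. *Fga* fell by 0.34 on the log2 scale (adjusted p = 0.0592 from limma) and *Fgg* by 0.29 (adjusted p = 0.0974), both below 0 on all 4 arrays, whereas *Fgb* had 0.15 (adjusted p = 0.514) and -0.84 on the swap array. *Serpina3k*, a close relative of *Serpina3n*, fell by 1.05 (adjusted p = 0.0402) and was below 0 on all 4 arrays. *Cp*, which encodes the copper carrier ceruloplasmin, had ratios of 0.13, 0.18, 0.96 and 0.03 and did not pass (adjusted p = 0.187). *Hamp*, the iron hormone hepcidin, had 0.22, 0.72, 0.12 and -0.70 (adjusted p = 0.485).

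The metallothioneins, which bind zinc and are induced by IL-6 and glucocorticoids, had the order of the serum amyloid A genes only in part. *Mt2* had ratios of -0.90, -0.79 and 1.86 on replicates 1, 2 and 3, with -0.74 from the swap array. *Mt1* had -0.38, -0.27, 1.25 and -1.07. Both were above 0 on replicate 3 and below 0 on the other arrays, and neither mean of 0.08 passed (adjusted p = 0.926 for *Mt2* and 0.888 for *Mt1* from limma).

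Of 14 genes listed here as falling in the acute phase, all were tested. Of these, 4 were higher, 1 lower and 9 did not pass, with a median of 0.12. The share that passed, 35.7%, was near the 34.5% of all tested probes. *Alb*, which encodes albumin, rose by 0.54 (adjusted p = 0.0485 from limma) but had -0.53 on the swap array, and *Trf*, which encodes transferrin, rose by 0.63 (adjusted p = 0.0977) with -0.70. With the dye term neither passed (0.14 for *Alb*, adjusted p = 0.549 from limma, and 0.09 for *Trf*, adjusted p = 0.641). *Ttr*, the thyroxine and retinol carrier transthyretin, had a mean of 0.33 (adjusted p = 0.155), *Rbp4*, the retinol-binding protein, 0.04 (adjusted p = 0.845) and *Serpina6*, the corticosteroid-binding globulin, 0.31 (adjusted p = 0.151). *Igf1*, the growth factor, fell by 0.53 (adjusted p = 0.0402) and was below 0 on all 4 arrays.

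Of 35 genes of the cytokine pathways that drive this response, 32 were tested, 3 were higher, 5 lower and 24 did not pass, with a median of -0.06. The share that passed was 25.0%, beside 34.5% of all tested probes. The median ratio of the 32 genes was -0.27, -0.12 and 0.18 on replicates 1, 2 and 3, with -0.03 from the swap array. Of these genes, 21 of 32 had their highest *Rap1*-deficient level on replicate 3, as had 6542 of 27513 probes in all. *Il6ra*, the IL-6 receptor, had a mean of 0.28 (adjusted p = 0.323 from limma) and *Il6st*, which encodes gp130, 0.17 (adjusted p = 0.223). *Lifr*, the gp130 partner for leukemia inhibitory factor, fell by 1.38 (standard error 0.10, adjusted p = 0.0295), with ratios between -1.59 and -1.24 on all 4 arrays. *Il1r1*, the IL-1 receptor, fell by 0.41 (adjusted p = 0.0523) and *Il1rap*, its accessory chain, had a mean of 0.000648 (adjusted p = 0.997).

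*Stat3*, the transcription factor of the IL-6 pathway, had ratios of -0.27, 0.12, 0.74 and -0.07, in the order of *Saa2* but smaller, and did not pass (adjusted p = 0.405 from limma). *Socs3*, its target and feedback inhibitor, was below 0 on all 4 arrays, at -0.89, -0.78, -0.14 and -0.71, and fell by 0.57 (adjusted p = 0.0696). *Socs1*, of the same list and named after its values were seen, had -0.28, -0.09, 1.97 and -0.16. Its mean of 0.55 did not pass (adjusted p = 0.406 from limma). *Cebpd* had 0.09, 0.16, 1.08 and -0.32 (adjusted p = 0.305) and *Cebpb* -0.86, -0.59, 0.14 and 0.05 (adjusted p = 0.253). Both had their highest ratio on replicate 3. *Cebpa*, added after its values were seen, had 1.80, 1.97, 1.32 and -0.13, lower on replicate 3 than on replicates 1 and 2, and rose by 1.37 (adjusted p = 0.0402). *Nfkbia*, an inhibitor and target of NF-κB, had -0.55, -0.55, 0.47 and 0.12 (adjusted p = 0.756). *Il6* itself, which was added after its values were seen, had a mean of -0.19 and did not pass (adjusted p = 0.3). Its log2 levels were low, from 6.20 to 6.70 in *Rap1*-deficient liver and from 6.60 to 6.69 in wild-type liver. It exceeded background in *Rap1*-deficient RNA on 3 of 4 arrays and in wild-type RNA on 4 of 4. *Tnf*, not tested, did so on 2 of 4 and 0 of 4, and *Il1a*, not tested, on 0 of 4 in both.

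Of the tested markers, 12 of 13 for macrophages and Kupffer cells and 6 of 8 for neutrophils also had their highest *Rap1*-deficient level on replicate 3, as had 6542 of 27513 probes in all. In whole liver RNA more such cells and more RNA per cell cannot be told apart. Of 13 macrophage and Kupffer cell markers tested, 1 was higher, 2 lower and 10 did not pass over the 3 pairs (23.1% passed, beside 34.5%). Their median ratio was -0.44, 0.13 and 1.34 on replicates 1, 2 and 3, with -0.14 from the swap array, and all 13 were higher on replicate 3 than in the mean of replicates 1 and 2, as were 12983 of 27513 probes in all. The mean log2 level of these markers lay between 10.36 and 11.95 in *Rap1*-deficient liver and between 10.82 and 10.89 in wild-type liver. *Adgre1*, which encodes a macrophage surface receptor, had ratios of -0.44, 0.13, 1.38 and -0.31, and *Clec4f*, a Kupffer cell lectin, -0.33, 0.53, 0.97 and -0.46. *Itgam*, an integrin of myeloid cells, was the 1 marker without its highest *Rap1*-deficient level on replicate 3. Its ratio there was -0.63, and it fell by 0.60 (adjusted p = 0.0402 from limma), below 0 on all 4 arrays. On replicate 3, 11 of 13 markers were above 0. The other below 0 was *Vsig4*, named after its values were seen, with -1.05, -0.24, -0.14 and 0.13. *Vsig4* also passed as lower (-0.28, adjusted p = 0.118 from limma). *Cd68* had no named probe.

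Of 14 neutrophil markers, 8 were tested, 0 were higher (0 also at an unadjusted p under 0.05), 1 lower and 7 did not pass in limma, so that 12.5% passed, beside 34.5%. Their median ratio was -0.41, -0.31 and 0.94 on replicates 1, 2 and 3, with -0.17 from the swap array, and their mean log2 level ran from 8.86 to 10.15 in *Rap1*-deficient liver and from 9.09 to 9.28 in wild-type liver. *S100a8* and *S100a9*, which encode the calprotectin chains of neutrophils and monocytes, had 1.83 and 1.78 on replicate 3 and ratios below 0 on every other array. The markers that were not highest on replicate 3, named after their values were seen, were *Elane*, neutrophil elastase, with 0.21, 0.28, 0.16 and -0.18, and *Stfa2*, a stefin, with -0.71, -0.63, -0.21 and 0.15. *Stfa2* was the marker that passed as lower (-0.38, adjusted p = 0.0860 from limma). The granule gene *Ngp* exceeded background in *Rap1*-deficient RNA on 1 of 4 arrays and in wild-type RNA on 0 of 4. The part of these cells in the values of *Lcn2* and *Saa3* was not tested.

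Of 14 genes for receptors of these proteins and for the breakdown of heme and biliverdin, 11 were tested, 1 was higher, 2 lower and 8 did not pass (27.3% passed, beside 34.5%), with a median of 0.09. *Fpr2*, a receptor through which SAA attracts leukocytes, had ratios of -0.08, 0.38, 2.14 and 0.30 and did not pass (adjusted p = 0.18 from limma). *Hmox1*, the heme oxygenase, had -0.10, 0.18, 1.38 and -0.29 (adjusted p = 0.327). Both had their highest ratio on replicate 3. *Lrp1*, the hemopexin receptor, rose by 0.28 (adjusted p = 0.118) with -0.18 on the swap array, and *Slc22a17*, a receptor of lipocalin 2, had a mean of 0.09 (adjusted p = 0.595). *Cd163*, the haptoglobin receptor of macrophages, exceeded background in *Rap1*-deficient RNA on 1 of 4 arrays and in wild-type RNA on 0 of 4.

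**Figure D4:**
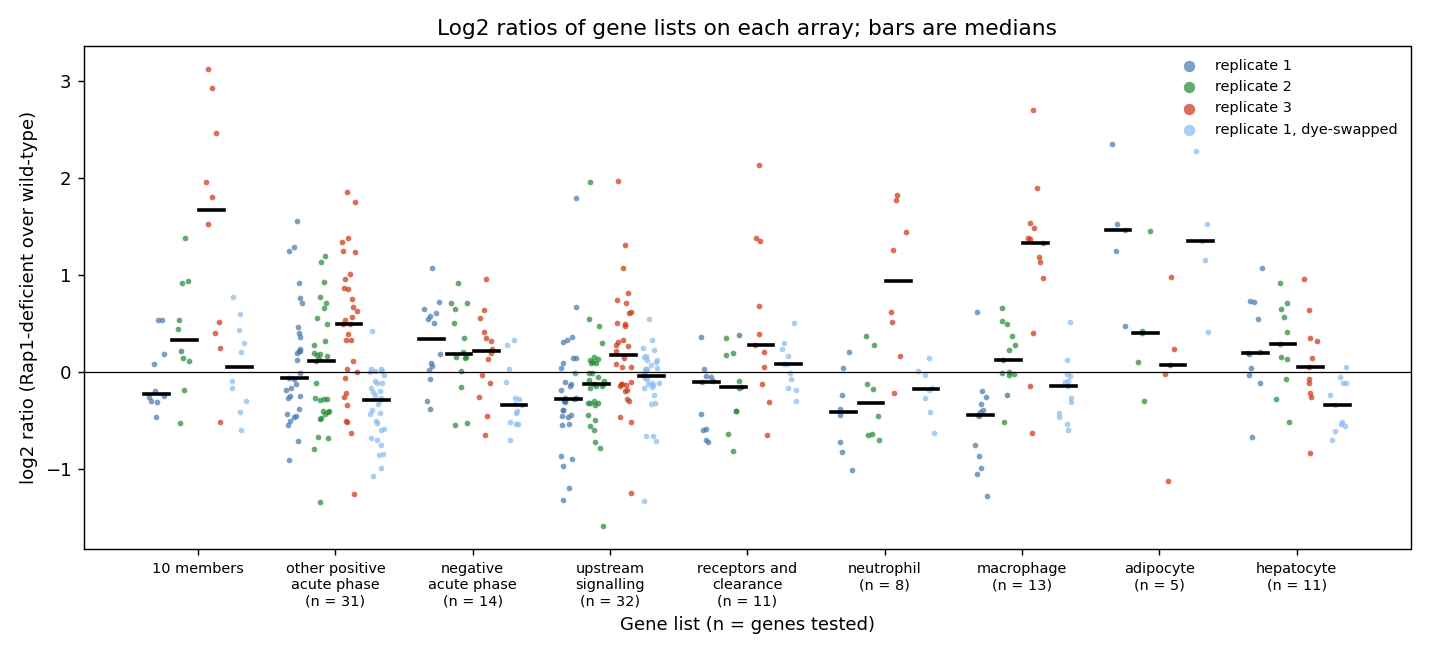
Log2 ratio (*Rap1*-deficient over wild-type, vertical axis) of the 10 genes and of the tested genes of 8 lists (horizontal axis), 1 point per gene and array, with a bar at each median. The median of the macrophage markers is 1.34 and that of the neutrophil markers 0.94 on replicate 3, and the 10 genes have 1.67 there.

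The 5 named genes whose ratios lay closest to those of *Saa1*, by root mean square distance over the 4 arrays, were *Scd2*, *Sirpb1a*, *H2-Eb1*, *Fpr2* and *Klra2*, at distances of 0.31 to 0.39. *Scd2*, a fatty acid desaturase, had ratios of 0.20, 0.64, 2.49 and 0.42. *H2-Eb1*, an MHC class II chain, had -0.40, 0.36, 2.60 and 0.20. With 4 arrays from 3 pairs, of which *Saa1* was one extreme on replicate 3, this is a ranking and carries no test.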

How the data were processed

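Liver RNA of *Rap1*-deficient and wild-type mice was hybridized in pairs to 4 Agilent 2-colour arrays on 1 slide, read in 1 scan. The authors deposited, for each dye, the median intensity of every spot and of its surroundings from Agilent Feature Extraction 10.7.3.1, per the file headers, with the processed intensities of that software and its log10 ratio of Cy5 over Cy3. The deposited table of the authors' log2 ratios is credited to limma in the submitters' processing notes. Set against the log10 ratios of the scans, its dye-swapped column was already turned (r = -0.65, and 0.77 to 0.80 for the other 3 arrays). The column medians were -0.01, -0.02, -0.02 and 0.000826. These values settle centring and direction and do not measure scale. How the table was corrected and normalized is not given in the sources used.

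Median intensities were corrected by normexp (offset 50) and then loess-normalized array by array (control spots weighted 0), using R 4.3.3 and limma 3.58.1. Spots with an outlier flag were left out, repeated spots were averaged, and ratios were turned to read *Rap1*-deficient over wild-type. The swap array was averaged with replicate 1, whose number it carries. Probes entered the test if, in 1 genotype or both, a share of at least 0.5 of their spots exceeded background on each array. The test was limma's lmFit and eBayes over 3 pairs, adjusted by Benjamini-Hochberg over 27513 probes, at the study's FDR of 0.15. Levels by genotype are log2 channel intensities after loess and Aquantile normalization, and they remain open to dye bias.

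The 10 genes and all gene lists were chosen with earlier results of these data known. Gene names came from a RefSeq table of GRCm38.p6 by accession, which matched 26056 of 55681 probes, and a gene outside the 10 is represented by its brightest tested probe. The text names the 10 genes, *Terf2ip*, a set of genes chosen from the lists by role, up to 3 further genes per list that passed with 1 sign on all 4 arrays, and the 5 genes closest to the brighter *Saa1* or *Saa2* probe. On simulated data with 27513 probes, 68% of simulated log2 changes of size 1 and 93% of those of size 2 were recovered by the 3-pair test, along with 21 false calls. The noise was drawn independently for each probe and pair, with 200 probes changed and no dye effect. The simulation therefore does not give the number of false calls in these data. Alternatives were a dye term, the swap array entered separately or left out, each replicate left out, other background corrections and normalizations, the authors' table, no filter, and an FDR of 0.05. Where replicate 1 was left out, the swap array was left out with it.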

Additional observations from a re-analysis of the deposited data

Results flagged for a closer look

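*Hp* and *Orm1* differed in direction between the arrays with *Rap1*-deficient RNA in Cy5 and the swap array. *Hp* had a log2 ratio of -0.17 on the swap array and values above 0 on replicates 1, 2 and 3. *Orm1* had -0.59 there and values above 0 on replicates 1, 2 and 3. The difference between dye orientations was not tested.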

How the results depend on the processing

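The number of the 10 acute phase genes that passed was 5, and it was 0 with a dye term, 0 with the swap array entered separately, 0 at an FDR under 0.05, 3 with median centring, 3 with no filter, and 0 to 8 without replicate 1, 2 or 3 in turn. Of all tested probes, 9488 passed, and 1844 with the dye term, 83 with the swap array entered separately, 14496 without that array, 2495 at an FDR under 0.05 and 7 to 12596 without 1 replicate. Of the genes of the 4 acute phase lists, 30 of 88 passed, and 10 with the dye term, 1 with the swap array entered separately, 48 without it, 15 with median centring, 10 at an FDR under 0.05 and 0 to 48 without 1 replicate. The 2 *Terf2ip* probes passed in 0 to 2 cases without 1 replicate, with 0 passing without replicate 2. The causes were not tested.

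These log2 changes turned in sign. With the dye term, *Orm1* had -0.16, *Fgb* -0.25, *Hamp* -0.17, *Mt1* -0.43, *Mt2* -0.34, *Ttr* -0.00205, *Rbp4* -0.0485, *Il6ra* -0.12, *S100a8* -0.22, *S100a9* -0.19 and *Clec4f* -0.0353. With the swap array entered separately, *Mt1* had -0.12, *Mt2* -0.14, *S100a8* -0.0181 and *S100a9* -0.0835, and without that array *Slc22a17* had -0.00147. With processed signals and with the authors' table, *Fgb* had -0.11 and -0.12, *Rbp4* -0.20 and -0.24, *Il1rap* -0.0120 and -0.0623, and *Slc22a17* -0.0229 and -0.0289. With median centring *Orm2* had 0.12 and *Nfkbia* 0.0572. *Il1rap* had -0.00634 with no background correction and -0.0107 with an offset of 16. Without 1 replicate in turn, the change ran from -0.0168 to 0.37 for *Orm1*, -0.28 to 0.11 for *Orm2*, -0.0780 to 0.84 for *Hpx*, -0.0192 to 0.35 for *Fgb*, -0.0598 to 0.42 for *Hamp*, -0.50 to 0.49 for *Mt1*, -0.81 to 0.54 for *Mt2*, -0.0541 to 0.77 for *Orm3*, -0.0508 to 0.18 for *Rbp4*, -0.0983 to 0.0939 for *Il1rap*, -0.0234 to 0.43 for *Stat3*, -0.38 to 0.13 for *Nfkbia*, -0.00686 to 0.78 for *Hmox1*, -0.59 to 0.69 for *S100a8*, -0.70 to 0.54 for *S100a9* and -0.12 to 0.75 for *Adgre1*.

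Each array pairs the genotypes, so the 3-pair test is itself paired, and the swap array shares its replicate number with replicate 1 alone. Across probes, the swap array correlated at r = 0.05 with the departure of replicate 1 from the other replicates, at -0.04 for replicate 2 and at -0.02 for replicate 3.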

Other observations

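By their median ratio, adipocyte markers ran in another order over the livers than the serum amyloid A genes. Of 8 markers, 5 were tested, 2 were higher (40.0%, beside 20.8% of all tested probes), 0 lower (0 also at an unadjusted p under 0.05) and 3 did not pass in limma, and their median log2 ratio was 1.46, 0.40 and 0.07 on replicates 1, 2 and 3 and 1.35 on the swap array. *Car3*, a carbonic anhydrase abundant in fat and liver, rose by 1.12 (adjusted p = 0.0402 from limma), and *Cidec*, a lipid droplet protein, by 0.67 (adjusted p = 0.102). *Cidec* had ratios of 1.53, 0.43, 0.24 and 1.16, whereas *Car3*, at 1.46, 1.46, 0.98 and 0.41, was lowest on the swap array. Of the markers not tested, *Adipoq* exceeded background in *Rap1*-deficient RNA on 3 of 4 arrays, *Plin1* on 2 and *Lep* on 0. In wild-type RNA each did so on 0 of 4. Among 11 hepatocyte markers, 2 passed as higher and 1 as lower (27.3%, beside 34.5% of all tested probes).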
